A study of Mus musculus with 48 samples.

Results

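The receptor tyrosine kinases Kdr, Flt1, Pdgfra and Pdgfrb were examined in single-cell RNA-seq of 48 mouse cells. The 4 genes were chosen by name, as receptors through which early mesoderm receives vascular endothelial growth factor (VEGF) and platelet-derived growth factor (PDGF), and each has 1 row among the 23284 gene symbols of the deposited table. The cells came from embryonic stem cells of strain 129P2/OlaHsd that carry an inducible Mesp1, grown as embryoid bodies, which are aggregates that differentiate in suspension. All 48 cells had received doxycycline at 500 ng/ml between days 2.25 and 3.25, were sorted on day 4 as living cells that exclude propidium iodide, and were captured singly on a Fluidigm C1 device. The labels name 1 group and no separate culture, so all cells stood as 1 sample, no uninduced cells were at hand for a comparison, and no p-value was made from cells.

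Values are FPKM, fragments per kilobase of transcript and per 1000000 mapped fragments, and a gene was counted as detected in a cell at 1 FPKM or more. Between 4788 and 7010 genes were detected per cell, with a median of 6212, and this number fell with the number in the cell's name (Spearman's rho = -0.82 over 48 cells). The 25 cells numbered up to 48 and the 23 numbered above 48 are therefore also given apart. Of the marker lists, 11 of 15 primitive streak genes were detected in at least 12 cells, as were 10 of 19 cardiac and lateral plate, 10 of 17 paraxial, 5 of 21 endothelial and 0 of 14 blood genes. Mesp1, the induced gene, was detected in 30 cells. Cdh5 and Emcn, genes of formed endothelium, were listed at 0 in all 48 cells.

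Kdr (VEGF receptor 2) is the main signalling receptor for VEGF-A and marks mesoderm that can give rise to endothelium, blood and heart. Flt1 (VEGF receptor 1) binds VEGF-A, VEGF-B and placental growth factor tightly but signals weakly, and its soluble form acts as a decoy that limits VEGF reaching Kdr. Pdgfra is the receptor for PDGF-A and PDGF-C chains and marks paraxial and cardiac mesoderm. Pdgfrb answers mainly to PDGF-B and is best known from mural cells, which wrap blood vessels.

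On GRCm38, Pdgfra lies on chromosome 5 from 75152292 to 75198215 on the plus strand, and Kdr on the same chromosome from 75932827 to 75978458 on the minus strand. The gap between them is 734611 bp, and the sole protein-coding gene annotated within it is Kit, the receptor for stem cell factor. Flt1 lies farther along chromosome 5, from 147561604 to 147726011 on the minus strand. The 250 bases before the transcription start were available from RefSeq (GRCm38.p6) for 3 of the 4 genes and are printed 5′ to 3′ on the strand of the gene, because the 3 genes differed in how many cells held them and in the genes they went with. They cover chr5:75978456-75978705 (Kdr, minus strand), chr5:147726012-147726261 (Flt1, minus strand) and chr5:75152001-75152250 (Pdgfra, plus strand). Capitals mark matches on either strand to the E-box (CANNTG), which basic helix-loop-helix factors such as Mesp1 bind, the binding core of ETS factors (AGGAAG), that of GATA factors (AGATAA), the cyclic AMP response element (TGACGTCA), the TATA box (TATAAA) and the GC box (GGGCGG). No marked match overlaps another.
Kdr: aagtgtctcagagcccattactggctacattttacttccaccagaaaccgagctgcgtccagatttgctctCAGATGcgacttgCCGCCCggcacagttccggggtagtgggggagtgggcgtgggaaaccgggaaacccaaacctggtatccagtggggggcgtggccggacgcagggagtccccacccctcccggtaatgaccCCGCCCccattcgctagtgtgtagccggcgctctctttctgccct
Flt1: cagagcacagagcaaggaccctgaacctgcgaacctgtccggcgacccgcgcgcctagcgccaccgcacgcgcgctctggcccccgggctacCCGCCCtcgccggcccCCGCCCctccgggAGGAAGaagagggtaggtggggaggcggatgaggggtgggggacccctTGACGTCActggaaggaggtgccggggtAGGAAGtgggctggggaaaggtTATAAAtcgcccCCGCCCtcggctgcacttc
Pdgfra: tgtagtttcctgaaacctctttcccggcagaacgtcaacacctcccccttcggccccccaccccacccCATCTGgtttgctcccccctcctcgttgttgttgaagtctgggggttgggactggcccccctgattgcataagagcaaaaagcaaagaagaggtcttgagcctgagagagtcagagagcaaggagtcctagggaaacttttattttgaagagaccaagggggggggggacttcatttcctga

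The Flt1 window was the richest in G and C, at 70.4% with 23 CpG dinucleotides, against 61.6% and 16 CpG for Kdr and 54.4% and 4 CpG for Pdgfra. Over 32851 mouse promoter windows of this length the medians were 52.4% and 6 CpG. The Flt1 window held 2 ETS cores, 1 cyclic AMP response element, 1 TATA box and 3 GC boxes, the Kdr window 1 E-box and 2 GC boxes, and the Pdgfra window 1 E-box. An E-box match is common, in 66.2% of all windows, while the ETS core occurs in 29.5%, the GC box in 32.7%, the TATA box in 12.4%, the GATA core in 9.99% and the cyclic AMP response element in 1.55%. The motifs were picked after the sequences had been seen, and a match describes letters in the window and no binding.

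Pdgfra was the receptor found in most cells, followed by Kdr, Pdgfrb and Flt1. It was detected in 31 of 48 cells (64.6%, exact Clopper-Pearson 95% interval 49.5% to 77.8%), Kdr in 22 (45.8%, 31.4% to 60.8%), Pdgfrb in 15 (31.2%, 18.7% to 46.3%) and Flt1 in 10 (20.8%, 10.5% to 34.99%). Intervals cover counting error only. The intervals of neighbours in this order overlap, as do those of Kdr and Flt1, while the interval of Pdgfra lies above those of Pdgfrb and Flt1. All receptors were measured in the same 48 cells, so overlap of separate intervals does not compare them. Kdr without Flt1 was detected in 18 cells, and Flt1 without Kdr in 6. Of all symbols other than short RNAs, 37% (8336 of 22504) were detected in at least 12 cells, a mark that 3 of the 4 receptors reached and Flt1 did not. Flt1 reached it at 0.1 FPKM (18 cells) and after each cell was scaled to a total of 1000000 without short RNAs (15 cells). Before scaling these totals ran from 412411 to 701418, so scaling raised levels in every cell and could only add detected cells. Scaling therefore acted as a lower threshold. The 37% was counted at the main threshold and without scaling.

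Over the 48 cells Kdr had its lowest value at 0, its median at 0.58 FPKM, its upper quartile at 11.9 FPKM and its highest value at 37.9 FPKM. It was listed at 0 in 18 cells and lay between 0 and 1 FPKM in 8. Among the 22 cells with Kdr the median was 13.5 FPKM, the lowest 1.38 FPKM and the highest 37.9 FPKM, and 13 of them reached 10 FPKM. The nearest value under the threshold was 0.85 FPKM. The cell with the most Kdr, C51, held 11.9% of the gene's summed FPKM, so the total did not rest on 1 cell.

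The median of Flt1 was 0 FPKM and its highest value 25.9 FPKM. Of the 10 cells with Flt1, 4 stood above the other 6. The 4 were C80 at 25.9 FPKM, C90 at 17.6 FPKM, C39 at 15.5 FPKM and C38 at 9.59 FPKM, and the others lay between 1.66 and 4.54 FPKM. A further 11 cells were between 0 and 1 FPKM, the highest at 0.97 FPKM, and 27 were listed at 0. The table gives 1 value per gene and does not separate the soluble from the membrane form of Flt1.

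For Pdgfra the median was 3.97 FPKM, the upper quartile 14.9 FPKM and the highest value 67.8 FPKM. It was listed at 0 in 13 cells, lay between 0 and 1 FPKM in 4, and reached 10 FPKM in 15. Its 31 detected values were spread from 1.05 FPKM in C42 through a median of 9.96 FPKM to 44.5 FPKM in C77 and 67.8 FPKM in C18. Pdgfra had both the highest median and the highest single value of the 4 receptors.

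Pdgfrb lies on chromosome 18 of GRCm38, from 61045150 to 61085061 on the plus strand, 15536 bp from its relative Csf1r. Its median was 0.093 FPKM and its highest value 32.04 FPKM. Of its 15 detected values, 6 were above 10 FPKM and the next was 3.995 FPKM. The 6 were C89 at 32.04 FPKM, C67 at 17.4 FPKM, C23 at 17.3 FPKM, C65 at 16.99 FPKM, C81 at 15.7 FPKM and C02 at 12.2 FPKM. Another 12 cells were between 0 and 1 FPKM and 21 were listed at 0. Within single cells, Pdgfra exceeded Pdgfrb in 31 cells and was lower in 8, and Kdr exceeded Flt1 in 26 and was lower in 12.

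**Figure D1:**
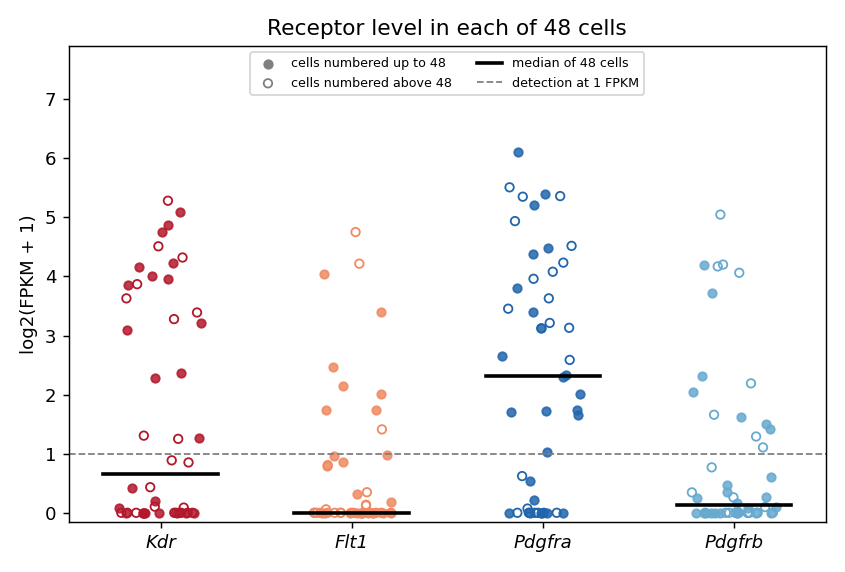
Each point is 1 of 48 cells, the vertical axis is log2(FPKM + 1), bars are medians over all cells, filled and open points are cells numbered up to and above 48, and the dashed line is 1 FPKM. Pdgfra has the highest median (3.97 FPKM) and Flt1 the lowest (0 FPKM), and filled and open points overlap for all 4 receptors.

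By cell number, Pdgfra was detected in 17 of 25 cells numbered up to 48 and 14 of 23 above, Pdgfrb in 7 and 8, Kdr in 13 and 9, and Flt1 in 7 and 3. With the number of detected genes the levels had rho = 0.17 for Kdr, 0.063 for Flt1, -0.069 for Pdgfra and 0.032 for Pdgfrb over 48 cells. With cell number the values were -0.23, -0.12, -0.048 and -0.070 in the same order.

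At 1 FPKM cells carried between 0 and 3 of the receptors, and no cell had all 4. At 0.1 FPKM 5 cells had all 4 (C02, C12, C13, C15 and C36), and 1 cell did after the scaling, which also acts as a lower threshold. At 1 FPKM none was detected in 6 cells, 1 receptor in 15, 2 in 18 and 3 in 9. The most common patterns were Kdr with Pdgfra (9 cells), Pdgfra alone (9 cells), Kdr with Pdgfra and Pdgfrb (5 cells) and Pdgfra with Pdgfrb (4 cells). Flt1 alone was found in 3 cells, and Kdr alone in 2. Of the 7 cells with fewer than 5189 detected genes, C93 and C95 held no receptor. C90 held Flt1 alone, C92 Kdr alone, C87 Pdgfra alone and C89 Pdgfrb alone, and C84 held Kdr with Pdgfra. A VEGF receptor (Kdr or Flt1) was detected in 28 cells and a PDGF receptor in 37. Receptors of both kinds shared 23 cells, 5 cells had a VEGF receptor without a PDGF receptor, and 14 had the reverse.

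Kdr and Pdgfra were the pair most often found together, in 16 cells. Pdgfra was detected in 16 of the 22 cells with Kdr (72.7%) and in 15 of the 26 without (57.7%). In 7 cells both were at 10 FPKM or more, and 11 cells had neither. Over 48 cells their levels had rho = 0.27 (Pearson's r = 0.22 on log2(FPKM + 1)), with rho = 0.34 in cells numbered up to 48 and 0.17 above. A correlation of this size over cells with many values at 0 is given as a description and not as a relation.

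Kdr and Flt1, which share the ligand VEGF-A, were found together in 4 cells at 1 FPKM, in 9 at 0.1 FPKM and in 7 after the scaling. The scaling, like 0.1 FPKM, lowers the threshold in every cell, so the count could only rise. At 1 FPKM Flt1 was detected in 4 of the 22 cells with Kdr (18.2%) and in 6 of the 26 without (23.1%), and their levels had rho = 0.0054 (r = -0.032), with -0.14 and 0.10 in the lower and higher numbered cells. The 4 cells were C80 with 13.6 FPKM of Kdr and 25.9 FPKM of Flt1, C15 with 13.4 and 3.3998 FPKM, C19 with 26.1 and 2.35 FPKM, and C65 with 11.4 and 1.66 FPKM. Each of these 4 also had a PDGF receptor, Pdgfra in C80 and C15 and Pdgfrb in C19 and C65, so that 0 cells had both VEGF receptors and no PDGF receptor. Of the other cells high in Flt1, C39 and C38 had Kdr listed at 0 and C90 had 0.075 FPKM of Kdr. C90 had 4878 detected genes, against a median of 6212 over the cells. Its summed FPKM was the highest of all cells (1.29e+07), and 438359 without short RNAs.

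Flt1 and Pdgfra were the pair whose levels went apart most, with rho = -0.33 over 48 cells (r = -0.20), -0.29 and -0.40 in lower and higher numbered cells, and -0.35 without the 2 cells farthest from the median of Flt1. They were detected together in 4 cells, that is in 40% of the cells with Flt1, while 27 of the 38 cells without Flt1 (71.1%) had Pdgfra. Of the 4 cells with the most Flt1, C80 had 14.6 FPKM of Pdgfra, and C90, C39 and C38 had it listed at 0. C90 is the cell with few detected genes described above.

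Pdgfrb was found with Pdgfra in 9 cells and with Kdr in 9. Pdgfra was detected in 60% of the 15 cells with Pdgfrb, as was Kdr. Levels of Pdgfra and Pdgfrb had rho = 0.27 (r = 0.15; 0.36 and 0.21 in lower and higher numbered cells), and those of Kdr and Pdgfrb rho = 0.28 (r = 0.20; 0.45 and 0.14). Pdgfrb and Flt1 shared 3 cells and had rho = 0.012 (r = -0.13). The cell with the most Pdgfrb, C89, had none of the other 3 receptors, and C67, with 17.4 FPKM, had 39.8 FPKM of Pdgfra and Kdr listed at 0. C89 had 4887 detected genes, against a median of 6212 over the cells.

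**Figure D2:**
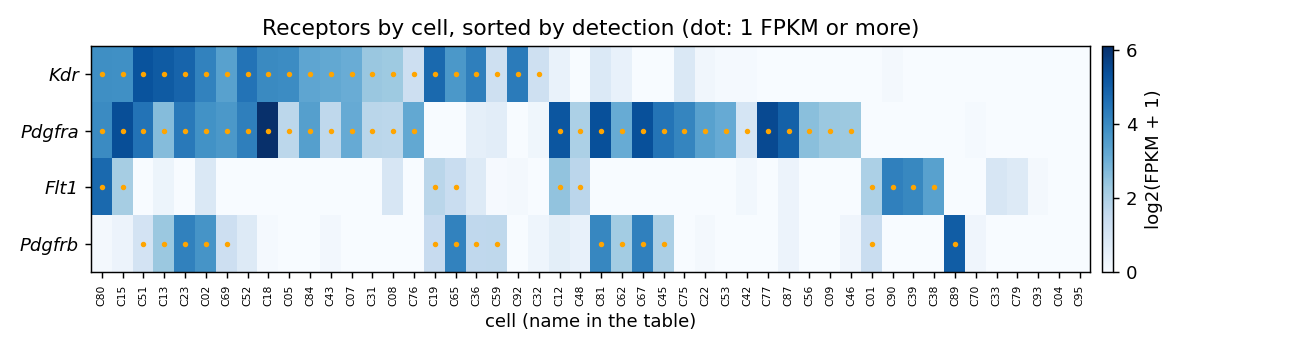
Columns are the 48 cells, sorted by which receptors they hold, rows are the receptors, colour is log2(FPKM + 1) and a dot marks 1 FPKM or more. Kdr and Pdgfra share 16 cells at the left, and the 6 cells at the right hold no receptor at 1 FPKM.

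**Figure D3:**
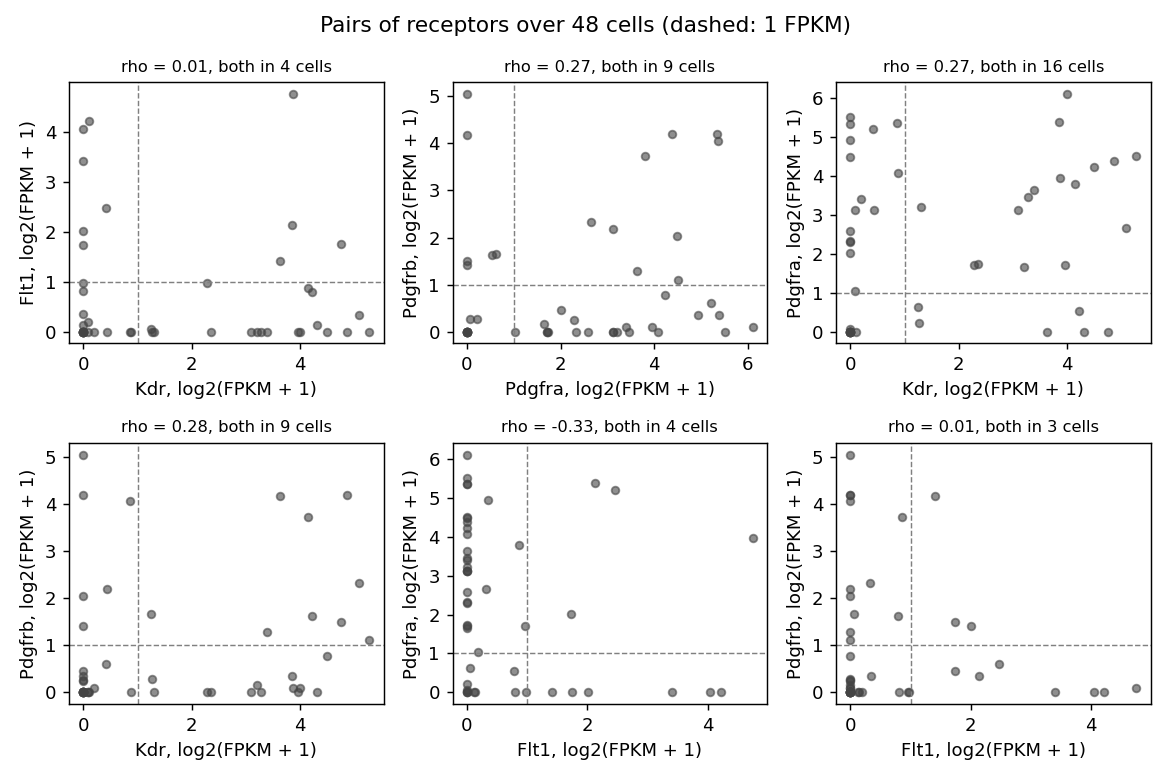
Each panel plots 2 receptors against each other on log2(FPKM + 1), 1 point per cell, with dashed lines at 1 FPKM. Values near both axes are frequent in every panel, and rho runs from -0.33 for Flt1 and Pdgfra to 0.28 for Kdr and Pdgfrb.

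The VEGF ligands were unevenly represented in the same cells. Vegfb, a ligand of Flt1, reached 1 FPKM in 44 cells (median 19.3 FPKM), whereas Vegfa, the ligand shared by Kdr and Flt1, did so in 9 cells (median 0.22 FPKM, highest 13.3 FPKM). Vegfc, a ligand of Flt4 that also binds Kdr, was detected in 13 cells, Pgf (placental growth factor) in 12 and Figf (VEGF-D) in 2. None of the 3 ligands detected in at least 12 cells passed rho = 0.3 with either VEGF receptor: Vegfb had rho = 0.18 with Kdr and -0.02 with Flt1, Vegfc 0.23 and 0.09, and Pgf 0.18 and 0.01.

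Among the co-receptors, Nrp1, a neuropilin that binds VEGF beside Kdr, reached 1 FPKM in 35 cells (median 8.58 FPKM, highest 72.4 FPKM). Its level went with Kdr at rho = 0.51 over 48 cells, 0.70 in cells numbered up to 48 and 0.38 above, and with Pdgfra at 0.32 (0.14 and 0.47). With Flt1 it had rho = -0.03. Nrp2 was found in 8 cells (highest 8.58 FPKM) and Flt4, the lymphatic VEGF receptor, in 6 (highest 10.2 FPKM).

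PDGF ligands were sparser. Pdgfa, which binds Pdgfra, was found in 18 cells (highest 111 FPKM), with rho = -0.15 with Pdgfra and -0.08 with Pdgfrb. Pdgfb, the main ligand of Pdgfrb, was listed at 0 in all 48 cells. Pdgfc was detected in 1 cell at 25.999 FPKM and Pdgfd in 2.

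Of the kinases closest to these receptors, Kit was found in 17 cells (highest 58.4 FPKM). Although Kit lies between Pdgfra and Kdr, its level had rho = -0.30 with Pdgfra (-0.38 and -0.22 in lower and higher numbered cells), 0.02 with Kdr and 0.35 with Flt1 (0.36 and 0.26). Kit shared 8 cells with Pdgfra and 10 with Kdr. Csf1r, next to Pdgfrb, was below 1 FPKM in every cell (maximum 0.35 FPKM) and Flt3, 161114 bp from Flt1, was listed at 0 throughout.

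**Figure D4:**
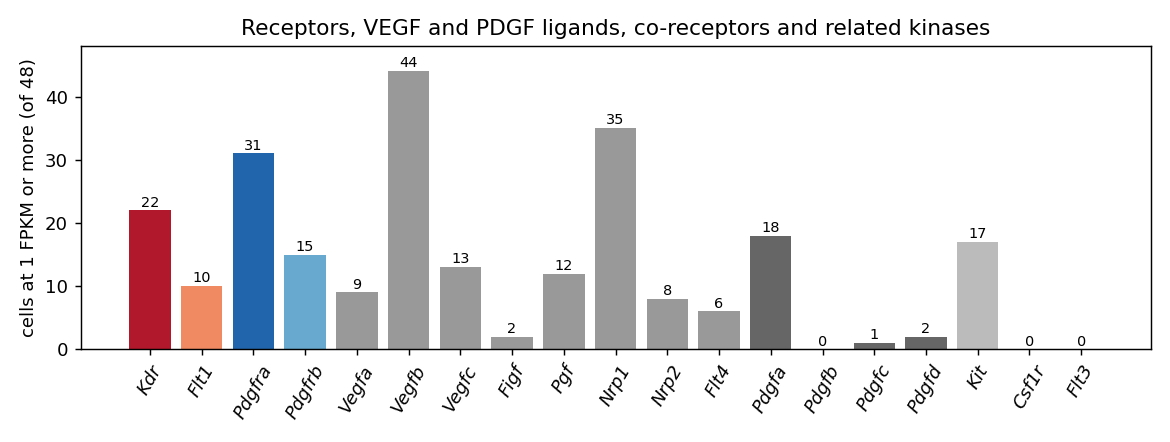
Bars give the number of cells, of 48, in which each gene reached 1 FPKM, for the 4 receptors, then VEGF ligands and co-receptors, PDGF ligands, and Kit, Csf1r and Flt3. Of the genes drawn, Vegfb (44 cells) and Nrp1 (35 cells) have the tallest bars, and Pdgfb, Csf1r and Flt3 stand at 0.

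Genes whose levels went with each receptor were ranked by Spearman's rho over the 48 cells among 8336 symbols detected in at least 12 cells, and counted past rho of 0.3 or -0.3. All cells share 1 preparation, and many values are tied at 0. With Kdr, 3.47% of genes passed 0.3 (289 of 8335) and 2.83% passed -0.3. With Pdgfra these shares were 3.48% and 2.86%, with Pdgfrb 2.59% and 1.7%, and with Flt1 1.63% and 3.37%. Flt1 and Pdgfrb had 27 and 21 cells tied at 0, so their rankings rest on the fewest cells. No share that unrelated genes would reach is given beside these shares. The genes named below are the extremes of rankings over 8336 symbols, so their rho is far from 0 by selection. Whether they exceed the extremes of unrelated genes was not tested.

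The 8 genes most like Kdr were Slc6a6 (rho = 0.60), Pmp22 (0.58), Cdk14 (0.58), Fn1 (0.57), Prdm6 (0.56), Ppic (0.56), Eri2 (0.56) and Rbms1 (0.55). Slc6a6 is a taurine transporter, Fn1 encodes the matrix protein fibronectin, and Prdm6 is a chromatin regulator known from smooth muscle. All 8 passed 0.3 in both the lower and the higher numbered cells, Slc6a6 with 0.40 and 0.77 and Fn1 with 0.58 and 0.57. Fn1 was found in 47 cells (median 60.04 FPKM), and Prdm6 in 25, of which 17 had Kdr. The 5 lowest were Gm5506 (-0.61), Eno1 (-0.60), Ormdl2 (-0.55), Ap3m1 (-0.53) and Nudcd1 (-0.52). Eno1, the glycolytic enzyme enolase, and Gm5506, a copy of it, had rho = 0.99 with each other, so reads may be shared between them and they count as 1 observation.

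The 8 genes most like Pdgfra were Pappa (0.70), Hoxb1 (0.58), Foxc1 (0.53), Map2k6 (0.52), Hs3st3b1 (0.51), Prtg (0.51), Isl1 (0.51) and Zfp184 (0.51). Pappa, a protease that frees insulin-like growth factor from its binding proteins, was found in 13 cells (highest 12.8 FPKM), and all 13 had Pdgfra. Its rho was 0.57 in lower and 0.80 in higher numbered cells. Hoxb1, an anterior Hox gene, was detected in 35 cells, of which 29 had Pdgfra. Foxc1 is a forkhead factor of paraxial mesoderm, and Isl1 a homeobox factor of second heart field progenitors. The lowest were Etnk1 (-0.56), Cdk2ap2 (-0.54), Tpd52 (-0.53), Cdh1 (-0.53) and Itm2b (-0.52). Cdh1, which encodes E-cadherin, was detected in 18 cells, of which 8 had Pdgfra.

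The genes most like Flt1 were Scfd1 (0.54), Ppm1g (0.48), Hhex (0.46), Idi1 (0.44), Dcaf17 (0.44), Rapgef6 (0.44), Trim43b (0.44) and Atp10d (0.44), of which 4 passed 0.3 in both sets of cells. Idi1 had rho = 0.13 in lower numbered cells, and Trim43b 0.18 in higher numbered cells. Gsc, from the primitive streak list, was left out of this ranking because it was detected in 10 cells. Its rho with Flt1 was 0.57, above that of Scfd1, and 4 cells held both Gsc and Flt1. Hhex, a homeobox gene of early endothelium and anterior endoderm, was detected in 16 cells, 5 of them with Flt1. The lowest were Rpl36a (-0.56), Uba1 (-0.56), Rpl4 (-0.52), Hnrnpl (-0.51) and Rpl27 (-0.51), 3 of which encode ribosomal proteins.

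The genes most like Pdgfrb were 6230427J02Rik (0.54), Kctd5 (0.48), Kpna3 (0.46), Egr1 (0.46), Aif1l (0.46), Cgrrf1 (0.46), Gm13363 (0.46) and Plekhm3 (0.46). Egr1, an immediate early transcription factor, was detected in 36 cells, among them all 15 with Pdgfrb. On log2(FPKM + 1), Pearson's r was below 0.3 for 4 of these 8, namely Kctd5 (0.13), Egr1 (0.24), Aif1l (0.25) and Plekhm3 (0.27). Among the other genes named by rank, r was nearer to 0 than 0.3 for Idi1 with Flt1 (0.20) and Clybl with Pdgfrb (-0.24). The lowest were Scaf8 (-0.50), Dym (-0.46), Cox4nb (-0.46), Clybl (-0.45) and Mrps31 (-0.43). Of the 52 relations named for the 4 receptors, 47 passed 0.3 with the same sign in both sets of cells. These sets are parts of the cells that chose the genes and so are no independent check.

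Marker lists were described by the same mark. Counting a gene once per list and receptor, 86 relations passed 0.3 or -0.3 over the 48 cells. Of these, 41 passed with the same sign in both the lower and the higher numbered cells. Of all genes 3.47% passed 0.3 and 2.83% passed -0.3 with Kdr, and 3.48% and 2.86% with Pdgfra. For Pdgfrb the shares were 2.59% and 1.7%, and for Flt1 1.63% and 3.37%. No count in both sets is given over all genes, so the 41 has no background beside it.

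Cardiac and lateral plate markers passed 0.3 most often with Kdr and Pdgfra. Of the 10 detected in at least 12 cells, 6 passed 0.3 with Kdr (median rho 0.34, against 0.0042 over all genes) and 6 with Pdgfra (0.32, against 0.0067). The shares of all genes past 0.3 were 3.47% and 3.48%. With Kdr these were Tbx3 (0.54), Gata4 (0.46), Fgf10 (0.39), Gata6 (0.35), Hand1 (0.35) and Myl7 (0.33). With Pdgfra they were Isl1 (0.51), Hand2 (0.45), Hand1 (0.45), Fgf10 (0.38), Tbx3 (0.33) and Mef2c (0.32). In both sets of cells 3 of the 6 passed with Kdr and 3 of the 6 with Pdgfra. In lower and higher numbered cells Myl7 had 0.40 and 0.02 with Kdr, and Gata6 0.17 and 0.49. With Pdgfra Fgf10 had 0.51 and 0.086, Tbx3 0.43 and 0.17, and Mef2c 0.047 and 0.54. Hand1, a factor of lateral and extraembryonic mesoderm, passed with both receptors over the 48 cells. In lower and higher numbered cells Hand1 had 0.37 and 0.295 with Kdr, and 0.44 and 0.44 with Pdgfra. Gata4 had 0.16 with Pdgfra and Isl1 0.10 with Kdr, so neither passed with both receptors. These differences between receptors were not tested. With Flt1, 0 of the 10 passed 0.3 and 3 passed -0.3, against 1.63% and 3.37% of all genes. The 3 were Isl1 (-0.48), Hand1 (-0.34) and Mef2c (-0.31). Of these, Isl1 alone passed in both sets, and with Pdgfrb none of the 10 passed in either direction.

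Paraxial markers passed most often with Pdgfra, a difference between receptors that was not tested. Of 10, 5 passed 0.3 with Pdgfra (median 0.32), against 3.48% of all genes. They were Foxc1 (0.53), Aldh1a2 (0.45), Foxc2 (0.42), Dll1 (0.40) and Lef1 (0.36). Foxc1 and Foxc2 passed in both sets of cells. With Kdr 1 passed, Tbx6, with a median of 0.15, and with Pdgfrb 0 (median 0.14). With Flt1 3 passed -0.3, against 3.37% of all genes. They were Lef1 (-0.42), Aldh1a2 (-0.37), which makes retinoic acid, and Foxc2 (-0.35), all 3 in both sets.

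Of 5 endothelial markers detected in at least 12 cells, 2 passed 0.3 with each VEGF receptor (median 0.25 with each). Of all genes 3.47% passed with Kdr and 1.63% with Flt1. Etv2 (0.47) and Gata2 (0.40) passed with Kdr, and Hhex (0.46) and Gata2 (0.36) with Flt1. The rest had 0.25 (Ramp2), 0.12 (Egfl7) and -0.24 (Hhex) with Kdr. Egfl7 had 0.25 and Ramp2 -0.09 with Flt1. Hhex (-0.44) and Egfl7 (-0.40) passed -0.3 with Pdgfra, against 2.86% of all genes. Etv2, an ETS factor at the head of the endothelial and blood programme, had rho = 0.06 with Flt1 and 0.0092 with Pdgfra. Within lower and higher numbered cells Etv2 had 0.35 and 0.64 with Kdr, and Gata2 0.52 and 0.29. Gata2 had 0.32 and 0.28 with Flt1, and Hhex 0.49 and 0.42. The receptors of later endothelium, Tek (2 cells) and Tie1 (0 cells, maximum 0.93 FPKM), were rare. Blood markers were too sparse to be measured here, with Runx1 in 10 cells.

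Of 5 epithelial genes, 4 passed -0.3 with Kdr and 4 with Pdgfra, against 2.83% and 2.86% of all genes. With Kdr (median -0.39, against 0.0042 over all genes) they were Cldn6 (-0.47), Cdh1 (-0.44), Epcam (-0.39) and Krt18 (-0.35). With Pdgfra (median -0.36, against 0.0067) they were Cdh1 (-0.53), Cldn6 (-0.51), Krt18 (-0.36) and Epcam (-0.34). In lower and higher numbered cells Cdh1 had -0.68 and -0.22 with Kdr, and Krt18 -0.52 and -0.13, so that 2 of the 4 passed with Kdr in both sets. With Pdgfra 3 of the 4 did, and Epcam had -0.45 and -0.19. With Flt1 their median was 0.13 and none passed, and with Pdgfrb it was -0.24 with none passed. Of 10 mesenchymal genes, Fn1 (0.57), Sparc (0.50) and Twist1 (0.40) passed with Kdr, and Prrx2 (0.36) and Fn1 (0.31) with Pdgfra. The 3 with Kdr passed in both sets of cells, and neither with Pdgfra did. Of all genes 3.47% passed 0.3 with Kdr and 3.48% with Pdgfra.

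Pluripotency and streak genes were mixed. Of 9 pluripotency genes, Lin28a (-0.50), Nanog (-0.43) and Pou5f1 (-0.41) passed -0.3 with Kdr, Zfp42 (-0.43) and Pou5f1 (-0.41) with Pdgfra, and Nanog (-0.33) with Pdgfrb. The shares of all genes past -0.3 were 2.83%, 2.86% and 1.7% with these receptors. Nanog had -0.64 with Pdgfrb in lower and 0.0042 in higher numbered cells, and -0.65 and -0.19 with Kdr, while the other 4 relations passed in both sets. Of 11 primitive streak genes, T (brachyury) passed -0.3 with Pdgfra (-0.46) and Mesp1 passed 0.3 with it (0.39, with 0.38 and 0.34 in lower and higher numbered cells). T had -0.22 with Pdgfra in lower and -0.66 in higher numbered cells. Of all genes 2.86% passed -0.3 and 3.48% passed 0.3 with Pdgfra. With Kdr none of the 11 passed, and Mesp1 had 0.19. With Flt1 1 passed, against 1.63% of all genes. It was Mixl1 (0.36), a homeobox gene of the streak, with 0.19 and 0.43 in lower and higher numbered cells. Of 4 endoderm genes, Gata6 (0.35) passed 0.3 with Kdr and Cldn6, Foxa2 (-0.36) and Trh (-0.33) passed -0.3, Foxa2 (0.37) passed with Flt1, Foxa2 (-0.43) and Cldn6 passed -0.3 with Pdgfra, and Trh (-0.39) with Pdgfrb. Gata6 also belongs to the cardiac and lateral plate list and Cldn6 to the epithelial list, so their relations repeat ones counted above. Of 2 neurectoderm genes, Zic2 (-0.32) passed with Kdr. In both sets of cells 4 of the 8 endoderm relations passed, and Zic2 did not. The shares of all genes given above for each receptor stand beside these counts as well.

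None of the mural genes passed with Pdgfrb. Of 12 smooth muscle and mural markers 3 were detected in at least 12 cells, and their rho with Pdgfrb was 0.16 for Rgs5, 0.15 for Des and -0.15 for Notch3. Rgs5, a pericyte gene, was detected in 29 cells and had rho = 0.44 with Kdr, 0.73 in lower and 0.15 in higher numbered cells. Kcnj8 was listed at 0 in all cells, and Cspg4, Abcc9 and Myh11 stayed below 1 FPKM in every cell. The remaining mural markers were detected in few cells, some of which held Pdgfrb. Acta2 was found in 8 cells, 3 of them with Pdgfrb, and Tagln in 6, 3 with Pdgfrb. Cnn1 was found in 3 cells, 1 with Pdgfrb, Tbx18 in 2, 2 with Pdgfrb, and Mcam in 1, 0 with Pdgfrb.

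**Figure D5:**
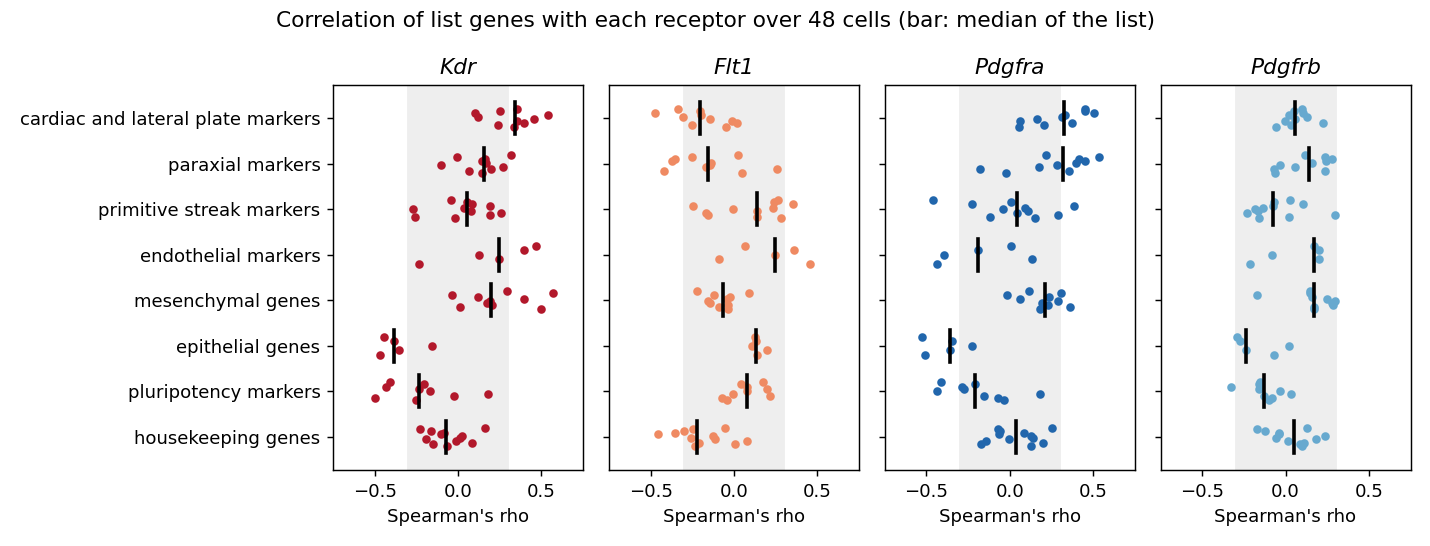
Each point is a gene of a marker list detected in at least 12 of 48 cells, placed by its Spearman's rho with the receptor named above the panel; bars are list medians and grey covers rho between -0.3 and 0.3. Cardiac and lateral plate genes lie to the right for Kdr and Pdgfra (medians 0.34 and 0.32) and to the left for Flt1 (-0.20), and epithelial genes to the left for Kdr and Pdgfra.

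All 4 rankings come from the same 48 cells, and the shares of shared genes stand beside those over all genes (3.47% with Kdr, 1.63% with Flt1, 3.48% with Pdgfra and 2.59% with Pdgfrb past 0.3). Of the 289 genes past 0.3 with Kdr and the 290 with Pdgfra, 34 were shared, which is 11.8% of the first list and 11.7% of the second, and 0 genes past 0.3 with Kdr passed -0.3 with Pdgfra. Kdr and Flt1 shared 2, or 0.69% of the genes with Kdr and 1.47% of the 136 with Flt1. Pdgfra and Pdgfrb shared 24, or 8.28% and 11.1%, and Kdr and Pdgfrb also 24, or 8.3% and 11.1%. Flt1 and Pdgfra went opposite ways for 21 genes, which passed 0.3 with Flt1 and -0.3 with Pdgfra (15.4% and 8.82%, against 2.86% of all genes past -0.3 with Pdgfra and 1.63% past 0.3 with Flt1), and 1 gene passed 0.3 with both. These counts are not separate from the correlations of the receptors themselves over the same cells. Flt1 and Pdgfra had rho = -0.33, and Kdr and Pdgfra 0.27.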

How the data were processed

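The authors deposited 1 table with a column per cell. The table names no unit; the deposited values were read as FPKM, the output of Cufflinks 2.2.1.0, a tool listed in the submitters' processing notes beside CASAVA 1.8.2, TopHat 0.7 and mm10. No source used here gives the annotation, the read filters or a scaling between cells. Depth per cell is unknown, since read counts cannot be had from FPKM.

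Columns were matched to cells by title. Where a symbol had more than 1 row (240 symbols), its rows were added, and each receptor had 1 row. No cell was removed and no doublet caller was run. Spearman correlations used FPKM and Pearson correlations log2(FPKM + 1), a pseudocount of 1 FPKM, over 8336 symbols detected at 1 FPKM in at least 12 cells, without 780 short RNA symbols, whose FPKM can be very large. Python 3.11.15, pandas 2.3.3 and SciPy 1.17.1 were used, and the correlation step was tested on simulated data. Coordinates came from GENCODE M21 and promoters from RefSeq. All 231 genes of 17 lists were found (Hras as Hras1).

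Genes named are the receptors, the VEGF, PDGF and related kinase genes, the 8 highest and 5 lowest correlated genes per receptor, and up to 4 genes per list with the largest absolute rho. Further list genes past 0.3, genes at or near 0 and the example cells were named after their values were seen. The receptors and lists were chosen with earlier results of these data known. Alternatives were the detection threshold, the scaling, the cells used, regression on detected genes or cell number, the correlation measure and the gene filter.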

Additional observations from a re-analysis of the deposited data

How the results depend on the processing

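Of 164 alternative values of the detection shares, receptor pairs and gene counts, 116 stayed within tolerance: a share within the exact 95% interval of the main one, a count within 1.5 times, and a correlation within 0.2 and on the same side of 0.3. No receptor pair past 0.3 changed sign. Among list genes Nanog with Pdgfrb did (0.0042 in cells numbered above 48). At 0.1 FPKM Flt1 was detected in 37.5% of cells and Pdgfrb in 50%, and at 10 FPKM Kdr was in 27.1%, Flt1 in 6.25%, Pdgfra in 31.2% and Pdgfrb in 12.5%. Shared cells at 0.1 FPKM were 50% for Kdr with Pdgfra, 39.6% for Pdgfra with Pdgfrb, 33.3% for Kdr with Pdgfrb, 18.75% for Kdr with Flt1 (8.33% at 1 FPKM), and 20.8% each for Flt1 with Pdgfra and with Pdgfrb. Flt1 with Pdgfra shared 12% of cells numbered up to 48 and 4.35% of those above. At 10 FPKM they were 14.6% for Kdr with Pdgfra, 8.33% for Pdgfra with Pdgfrb, 6.25% for Kdr with Pdgfrb, 2.08% each for Flt1 with Kdr and with Pdgfra, and 0% for Flt1 with Pdgfrb.

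For pairs, rho passed 0.3 in cells numbered up to 48 for Pdgfra with Pdgfrb (0.36), Kdr with Pdgfra (0.34) and Kdr with Pdgfrb (0.45), without the 2 farthest cells for Pdgfra with Pdgfrb (0.33), and for Kdr with Pdgfrb without 7 cells under 5189 detected genes (0.37) and after scaling each cell to a total of 1000000 without short RNAs (0.30). Flt1 with Pdgfra was -0.29 in cells numbered up to 48 and -0.20 by Pearson's r.

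Counts of genes past 0.3 rose in the smaller sets of cells, where a fixed mark is passed by more genes by construction, as fewer cells enter. In cells numbered up to 48 and above 48 the counts higher were 620 and 909 for Kdr, 454 and 520 for Flt1, 660 and 984 for Pdgfra, and 543 and 981 for Pdgfrb. The counts lower were 887 and 589 for Kdr, 896 and 923 for Flt1, 815 and 542 for Pdgfra, and 961 and 430 for Pdgfrb. Without the 7 cells 237 were higher with Flt1, 448 lower with Pdgfra and 312 lower with Pdgfrb. After scaling 155 were lower with Kdr, and 209 higher and 156 lower with Flt1. With genes in at least 5 cells 205 were higher with Flt1. The cause of the changes after scaling was not tested. The counts of receptors per cell at other thresholds and of list genes in both sets of cells were added after seeing the data. All 52 relations of the highest and lowest genes stayed past 0.3 under the scaling and both regressions. No paired analysis was possible because all cells form 1 group. Unknown depth limits every value near 1 FPKM, and a value of 0 is reported as listed.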

Other observations

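Over the 48 cells ribosomal protein genes ran opposite to Flt1, mainly in cells numbered up to 48 and less so after scaling. This list was chosen after the lowest genes with Flt1 had been seen. Of 80 ribosomal protein genes, 29 passed -0.3 with Flt1 and 0 passed 0.3, against 3.37% and 1.63% of all genes. Their median rho was -0.28, against -0.018 over all genes. The median was -0.36 in cells numbered up to 48 and -0.063 above. After scaling each cell to a total of 1000000 without short RNAs, 8 passed -0.3, where 156 of all genes did. The median was then -0.11, against 0.0094 over all genes. With Kdr 2 of the 80 passed -0.3, with Pdgfra 0 and with Pdgfrb 2, against 2.83%, 2.86% and 1.7% of all genes.

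Of 10 other surface genes of mesoderm, 2 passed 0.3 with Kdr and 3 with Pdgfra, against 3.47% and 3.48% of all genes. In both sets of cells 1 and 2 of these did. Gpc3, a glypican, was found in every one of 48 cells (median 336 FPKM) and had rho = 0.50 with Kdr and 0.36 with Pdgfra. Pcdh18, a protocadherin, had 0.38 with Kdr. Cxcr4, the receptor for Cxcl12, had 0.46 with Pdgfra, and Ncam1 0.33. Among related kinases, Insr (the insulin receptor) had 0.50 with Pdgfra and -0.42 with Flt1, Epha4 0.42 and -0.30, and Ephb4 0.40 with Pdgfrb and 0.32 with Flt1. None of the related kinases passed with Flt1 in both sets of cells.

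Of 28 signalling intermediates below the receptors, 24 were detected in at least 12 cells. Past 0.3, 1 of the 24 passed with each of Kdr, Flt1 and Pdgfra (4.17%), against 3.47%, 1.63% and 3.48% of all genes, which is near the background. The adaptor Shc1 had rho = 0.35 with Kdr, the adaptor Grb2 0.33 with Pdgfra, and Map2k2 0.31 with Flt1. None of these passed in both sets of cells. In lower and higher numbered cells Shc1 had 0.48 and 0.18, Grb2 0.22 and 0.46, and Map2k2 0.39 and 0.24. Mapk3, the kinase ERK1, had -0.45 with Flt1, and 0 of the 24 passed either mark with Pdgfrb. Of 12 housekeeping genes, 0 passed with Kdr, Pdgfra or Pdgfrb. Rplp0 (-0.45), Rpl13a (-0.35) and Eef1a1 (-0.30) passed -0.3 with Flt1, against 3.37% of all genes. None of these passed in both sets of cells. In lower and higher numbered cells Rplp0 had -0.53 and -0.21, Rpl13a -0.38 and -0.28, and Eef1a1 -0.29 and -0.21. Rplp0 and Rpl13a are ribosomal protein genes, so this count is in part the relation described above for such genes.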
